A study of Mus musculus with 4 samples.

Results

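Pmvk, Mvd, Idi1 and Fdft1 encode consecutive and near-consecutive enzymes of the mevalonate and squalene pathway. They were chosen by name, 4 of the 6404 genes that could be read from the deposited values, because their change with stem cell factor (SCF) was already known to differ between the 2 cell lines studied. Every probe set (a group of short probes read as 1 value) that the platform annotation ties to 1 of these symbols alone was used, 7 of 10861 in all. Pmvk had 1 probe set and Mvd, Idi1 and Fdft1 had 2 each.

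The cells were EML, a mouse lymphohematopoietic progenitor line kept in culture with SCF, which binds and activates the receptor tyrosine kinase KIT. The first pair of groups carried the KIT mutant D816V, with a change in the phosphotransferase domain, and was profiled with SCF at 250 ng/mL for 48 h and without SCF. The second pair carried the KIT mutant Del417-419insY, with a change in the extracellular domain, and was profiled in the same manner, with and without SCF. All 4 groups shared the EML background, a retroviral vector that brought in the mutant receptor, selection with geneticin, growth in medium free of growth factor to obtain autonomous cells, and a sort for cells expressing KIT. Each mutant was 1 transduced population, the sources used here do not say how long the cells without SCF were cultured, and each group was 1 array. No value below therefore has a replicate, and no difference could be set against the spread between cultures.

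Values were relative levels on the log2 scale, each probe set having its own zero, whose origin the sources used here do not give. Differences between arrays can be read from them, but levels of different genes cannot be compared, and the presence or absence of a marker cannot be judged. Array medians ran from -0.20 on the D816V array with SCF to -0.02 on the Del417-419insY array without SCF, and the D816V array with SCF also had the widest spread, an SD of 0.79 over probe sets.

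In the mevalonate pathway acetyl units are condensed and reduced to mevalonate, which is phosphorylated, decarboxylated and joined into isoprenoid chains. Part of these chains goes to ubiquinone, dolichol and lipid anchors of proteins, and part to squalene and then cholesterol. Most genes of the pathway are activated by the transcription factor SREBP-2, which is released from the endoplasmic reticulum when sterols run low, and the Insig proteins hold it back when sterols are plentiful. Phosphomevalonate kinase, encoded by Pmvk, adds the second phosphate to mevalonate. Mvd encodes the decarboxylase that makes isopentenyl diphosphate, and Idi1 the isomerase that turns it into dimethylallyl diphosphate. Squalene synthase, encoded by Fdft1, joins farnesyl diphosphate molecules head to head and is the first enzyme committed to sterols.

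The promoters of the members were examined because the members differed together between arrays, and promoters are where shared activators bind. RefSeq windows of 300 bases on build GRCm38.p6, from 250 bases before a gene's start to 50 after its first base, were found for 3 of the 4 genes. The sequences below run 5′ to 3′ on the gene's own strand, with 2 motifs or their reverse complements in capitals. CCAAT is the core of the site of the factor NF-Y, and the core of the Sp1 site is GGGCGG. Both factors are partners of SREBP at sterol promoters. The Pmvk window is chr3:89454291-89454590 on the plus strand, the Mvd window chr8:122443373-122443672 on the minus strand and the Idi1 window chr13:8885356-8885655 on the plus strand.
Pmvk: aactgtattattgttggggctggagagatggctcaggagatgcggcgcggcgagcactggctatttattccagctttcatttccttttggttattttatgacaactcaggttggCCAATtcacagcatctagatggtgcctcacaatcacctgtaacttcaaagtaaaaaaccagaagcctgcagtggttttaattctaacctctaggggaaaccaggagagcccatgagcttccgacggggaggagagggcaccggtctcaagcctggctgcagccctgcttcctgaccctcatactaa
Mvd: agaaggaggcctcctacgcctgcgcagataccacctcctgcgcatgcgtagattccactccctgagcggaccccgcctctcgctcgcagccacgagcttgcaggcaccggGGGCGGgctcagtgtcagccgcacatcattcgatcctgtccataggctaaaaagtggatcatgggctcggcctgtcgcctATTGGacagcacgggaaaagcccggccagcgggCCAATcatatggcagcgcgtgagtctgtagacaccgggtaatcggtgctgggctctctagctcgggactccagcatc
Idi1: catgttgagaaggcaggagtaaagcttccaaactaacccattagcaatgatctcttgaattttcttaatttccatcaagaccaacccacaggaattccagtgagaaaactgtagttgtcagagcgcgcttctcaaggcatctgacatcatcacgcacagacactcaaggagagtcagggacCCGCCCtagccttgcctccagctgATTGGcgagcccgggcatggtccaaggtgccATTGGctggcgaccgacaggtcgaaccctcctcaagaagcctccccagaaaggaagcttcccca

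Each printed window held CCAAT at least once. The Idi1 window held it 2 times on the reverse strand, beginning 45 and 14 bases before the start site. In Mvd it also occurred 2 times, beginning 60 bases before the start on the reverse strand and 27 before it on the forward strand. Pmvk had a single copy that began 136 bases before the start. A second Pmvk window, chr3:89459321-89459620 at a start further downstream, had none. Which of these starts the cells used was not examined, so the printed window may not be the promoter in use. GGGCGG or its reverse complement was present 1 time in the Mvd and 1 time in the Idi1 window, and none of the printed matches overlap. Over the 5248 measured genes with a window, 43.3% held CCAAT and 71.3% held GGGCGG on either strand. All 12 measured enzymes of the remaining pathway with a window held both motifs. The motif TCACNCCAC is the sterol regulatory element of the LDL receptor promoter with 1 base left open. It was in none of the members' windows, in 1 of the 12 other enzymes and in 1.26% of genes measured. CACGTG, an E-box, was likewise in none of the members' windows and in 12.4% of genes measured. These matches are letters in a window and were not measured as binding.

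All 4 enzyme genes were higher with SCF than without it in D816V cells. Pmvk, Mvd and Fdft1 were 2.76, 2.59 and 2.34-fold higher with SCF there, and Idi1 was 1.69-fold higher. In Del417-419insY cells Pmvk and Fdft1 differed little between the conditions, at 1.12 and 1.11-fold, Mvd was 1.38-fold higher and Idi1 was lower with SCF.

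Pmvk stood at 0.997 on the D816V array with SCF and -0.47 on the D816V array without SCF, against -0.30 with SCF and -0.47 without SCF in Del417-419insY cells. The D816V array with SCF was the high one, and the other 3 spanned 0.16. The SCF difference was 1.46 on the log2 scale in D816V cells and 0.16 in Del417-419insY cells. Of all 6404 genes only 2 had a larger SCF difference in D816V cells, whereas 1888 had a larger one in Del417-419insY cells.

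Mvd is read by probe sets 1417303_at and 1448663_s_at, whose suffix s marks probes shared with transcripts of another gene. The plain probe set stood at 0.85 with SCF and -0.25 without SCF in D816V cells, and at -0.45 with SCF and -0.85 without SCF in Del417-419insY cells. The other gave 1.35 and -0.30 in D816V cells with and without SCF, and -0.12 and -0.66 in Del417-419insY cells with and without SCF. Both placed the D816V array with SCF highest and the Del417-419insY array without SCF lowest. As the mean of its probe sets Mvd was higher with SCF by 1.37 in D816V cells and by 0.47 in Del417-419insY cells, the highest value of the 4 members in that line.

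Idi1 followed another course in Del417-419insY cells. Probe set 1423804_a_at, which reads several transcript forms of the gene, stood at 1.04 with SCF and 0.30 without SCF in D816V cells, and at -0.65 with SCF and 0.43 without SCF in Del417-419insY cells. Probe set 1451122_at gave 0.74 and -0.04 in D816V cells with and without SCF, and -0.47 and 0.13 in Del417-419insY cells with and without SCF. On both probe sets the D816V array with SCF was the highest and the Del417-419insY array with SCF the lowest of the 4. As the mean of both, the SCF difference was 0.76 in D816V cells and -0.84 in Del417-419insY cells, and only 60 of 6404 genes had a lower value in Del417-419insY cells. Idi2, the neighbouring paralog, was not analysed here.

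Fdft1 probe set 1448130_at stood at 0.28 with SCF and -0.86 without SCF in D816V cells, and at -0.34 with SCF and -0.46 without SCF in Del417-419insY cells. Probe set 1438322_x_at, whose suffix x marks probes that may also bind other sequences, gave 0.57 and -0.75 in D816V cells with and without SCF, and -0.12 and -0.31 in Del417-419insY cells with and without SCF. The D816V arrays were thus the extremes of the range on both probe sets, highest with SCF and lowest without it. The SCF difference averaged 1.23 in D816V cells and 0.15 in Del417-419insY cells.

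**Figure D1:**
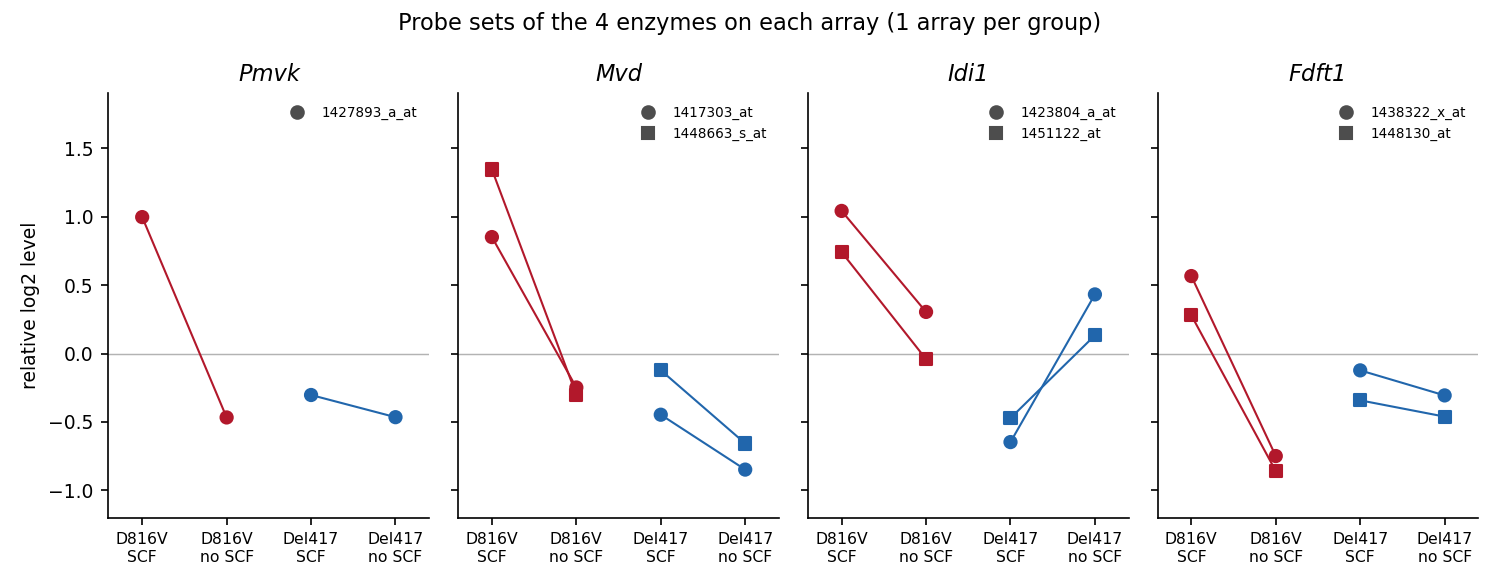
Relative log2 level (vertical axis) of the 7 probe sets of Pmvk, Mvd, Idi1 and Fdft1 on the 4 arrays (D816V in red, Del417-419insY, written Del417, in blue; marker shape tells the probe sets of a gene apart; lines join the arrays of a line). There is 1 array per group, so no error bar is drawn. The D816V array with SCF is the highest for every probe set, and the Idi1 probe sets are lower with than without SCF in Del417-419insY cells.

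The difference between the SCF responses, D816V minus Del417-419insY, was the value by which the members had been chosen, so it is given as a description. It was 1.60 for Idi1, 1.30 for Pmvk, 1.08 for Fdft1 and 0.90 for Mvd, with a median of 1.19 against -0.06 over all genes. By this measure 3 of the 4 members were 2-fold or more higher, where 0.344% of all genes were. All 7 probe sets were on the positive side, from 0.70 for the plain Mvd probe set to 1.82 for 1423804_a_at of Idi1. A model with this term leaves no residual degree of freedom among 4 arrays, so the difference could not be tested.

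By line, 3 of the 4 members were 2-fold or more higher with SCF in D816V cells, where 0.328% of all genes were, and none was in Del417-419insY cells, where the share of all genes was also 0.328%. At 1.5-fold or more all 4 were higher in D816V cells (2.55% of all genes). In Del417-419insY cells Idi1 alone was 1.5-fold or more lower, where 2.86% of all genes were, and none of the 4 was higher, where 2.14% were. These counts come from the contrast that chose the members and support nothing further.

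**Figure D2:**
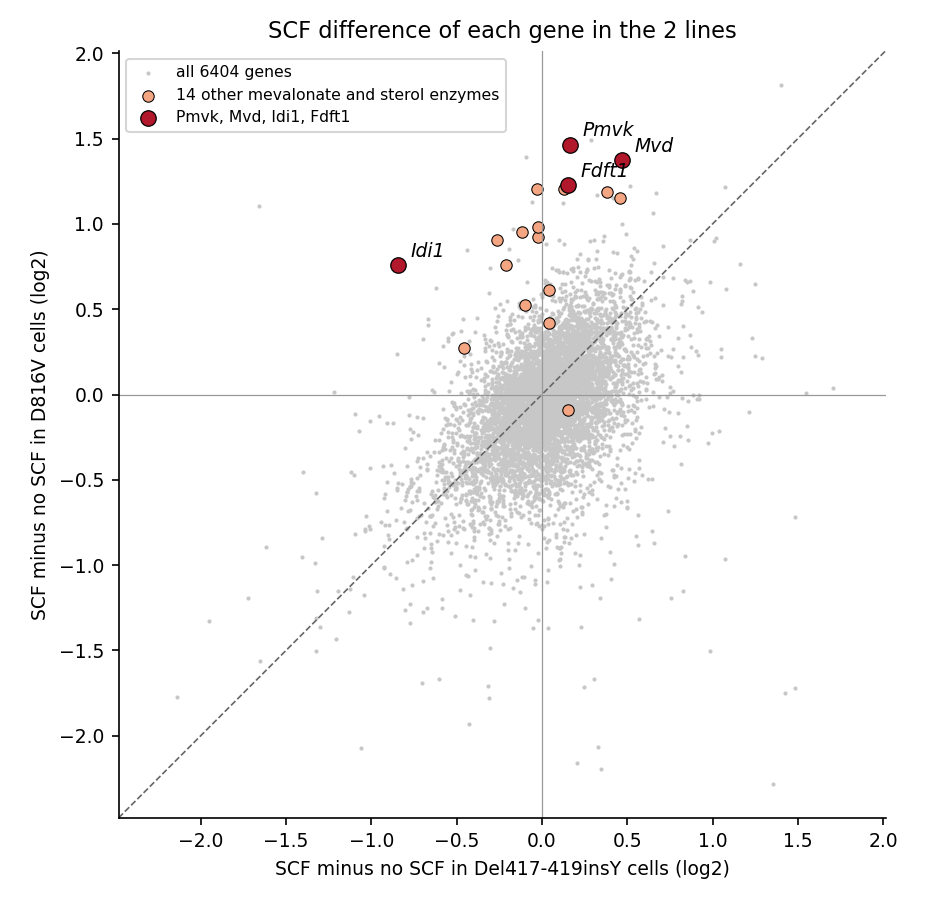
log2 difference between SCF and no SCF in D816V cells (vertical axis) against Del417-419insY cells (horizontal axis) for all 6404 genes (grey), 14 other mevalonate and sterol enzymes (orange) and the 4 members (red); the dashed line marks equal differences. The members lie above the line, from 0.76 to 1.46 on the vertical axis, and Idi1 lies far to the left at -0.84 on the horizontal axis.

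The comparison of the mutants within a condition gave the same 4 arrays in another arrangement. With SCF all 4 genes were higher in D816V than in Del417-419insY cells, by 1.45 for Idi1, 1.38 for Mvd, 1.30 for Pmvk and 0.66 for Fdft1 on the log2 scale. Without SCF the differences lay on both sides of 0, at 0.48 for Mvd, -0.002 for Pmvk, -0.15 for Idi1 and -0.42 for Fdft1. With SCF 3 of 4 members were 2-fold or more higher in D816V cells, where 6.34% of all genes were, and without SCF 0 of 4 were, where 6.29% of all genes were. The line difference over all genes had a median of -0.14 with SCF and -0.08 without SCF. Centring each array on its median moved the median with SCF to 0.01 and raised the members' line differences with SCF by 0.15.

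The pathway around the members was read through 14 further enzymes of mevalonate and sterol synthesis, with 23 probe sets. In D816V cells 13 of these 14 were higher with SCF, where 43.9% of all genes were, and 1 was lower, and 4 were 2-fold or more higher (0.328% of all genes). Their median SCF difference was 0.92 in D816V cells and -0.02 in Del417-419insY cells. Over all genes these medians were -0.05 and 0.03. In Del417-419insY cells 6 of the 14 were higher (55.1% of all genes) and 8 lower (44.7% of all genes). None was past 2-fold there, where 0.328% of all genes were higher and 0.547% lower, so this count lies near the background. The difference between the SCF responses had a median of 0.88, with 13 of 14 above 0, where 41.7% of all genes were, and with 5 of 14 at 2-fold or more (0.344% of all genes). These 5 were among the 22 genes past 2-fold in this direction, and the list holds 14 of all 6404 genes. Pmvk, Idi1 and Fdft1 were also among the 22, but they had been chosen by this difference. The list itself was drawn up with earlier results of these data known. Between the lines with SCF the 14 enzymes had a median difference of 0.62, D816V minus Del417-419insY, with 12 of 14 above 0 (42.0% of all genes). At 2-fold or more higher was 1 of the 14, near the share of all genes, 6.34%. Without SCF their median was -0.29, with 12 of 14 below 0 (55.7% of all genes) and 3 at 1.5-fold or more lower (12.6% of all genes).

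Dhcr7, the reductase that makes cholesterol from its immediate precursor, stood at 0.84 with SCF and -0.36 without SCF in D816V cells, against -0.06 with SCF and -0.03 without SCF in Del417-419insY cells. Its difference between the SCF responses, 1.23, was the largest of the 14. Cyp51, the lanosterol demethylase, followed with 0.91 in D816V and -0.26 in Del417-419insY cells. The sterol dehydrogenase gene Nsdhl, which acts with Msmo1 in removing methyl groups, gave 1.21 and 0.13 in D816V and Del417-419insY cells, and Msmo1 itself gave 0.95 and -0.12. Lss, which encodes the cyclase that folds oxidised squalene into lanosterol, gave 0.98 in D816V cells and -0.02 in Del417-419insY cells. All 5 were at or past 2-fold in the difference between the responses, from 1.004 for Lss upward. After quantile normalization Lss fell short of it at 0.88 and Hmgcs1 passed it at 1.04, so the 5 genes were then not the same.

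Nearer the members in the pathway, Hmgcs1, the synthase of HMG-CoA upstream of mevalonate, had SCF differences of 0.76 in D816V cells and -0.21 in Del417-419insY cells. Its 5 probe sets gave differences between the responses from 0.67 to 1.25. Fdps, whose product farnesyl diphosphate is the substrate of Fdft1, gave 0.93 in D816V cells and -0.02 in Del417-419insY cells. Mvk, the kinase just before Pmvk, was outside the naming rule and is given because of its place. It resembled Mvd in being higher with SCF in both lines, by 1.15 in D816V and 0.46 in Del417-419insY cells. The smallest positive difference between the responses was that of the isomerase gene Ebp, 0.38, from 0.42 in D816V and 0.04 in Del417-419insY cells. Lbr, a nuclear envelope receptor of lamin B with sterol reductase activity, was the exception, with -0.09 in D816V and 0.15 in Del417-419insY cells. Its enzymatic counterpart Tm7sf2, also named after its values were seen, gave 1.19 and 0.38 in D816V and Del417-419insY cells.

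**Figure D3:**
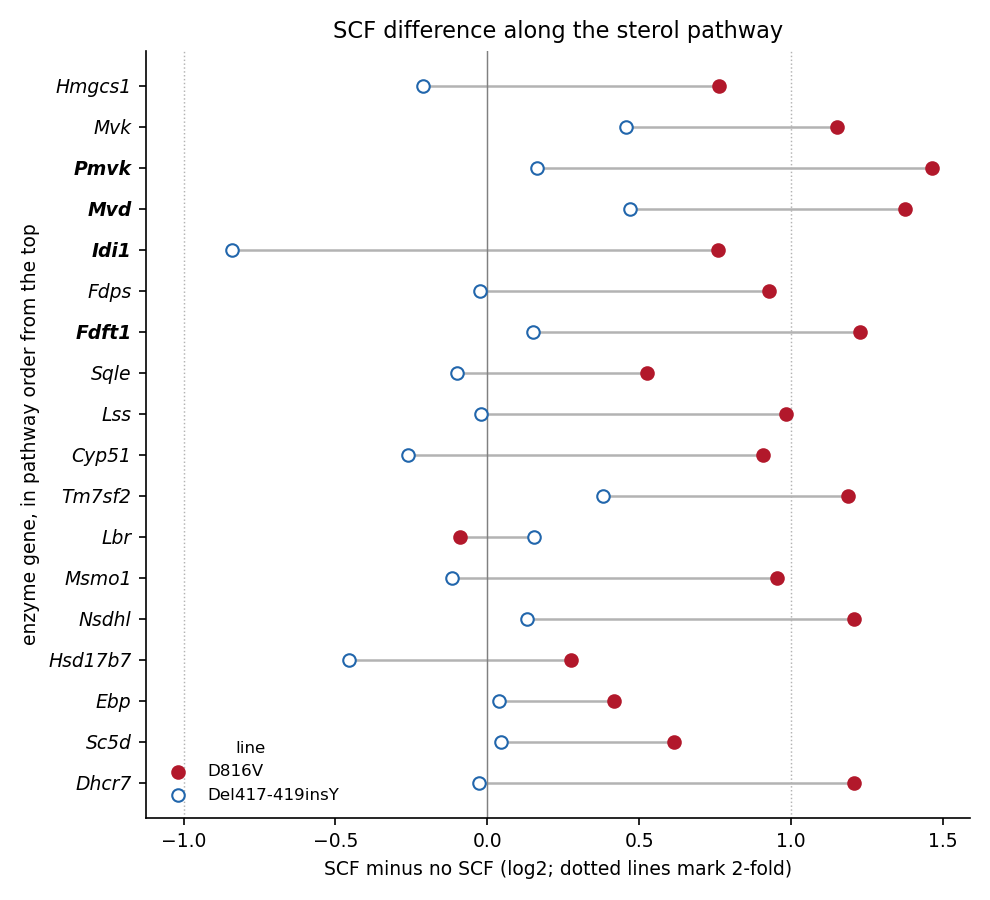
log2 difference between SCF and no SCF (horizontal axis) in D816V cells (filled red) and Del417-419insY cells (open blue) for the 18 measured mevalonate and sterol enzymes, in approximate pathway order from the top, with the members in bold; each point averages the probe sets of a gene from 1 pair of arrays. The D816V point lies to the right of the Del417-419insY point for 17 of 18 genes, Lbr being the exception.

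Branches that leave the pathway before squalene were read through 15 listed genes of prenyl transfer, dolichol and ubiquinone synthesis, of which 8 were measured. None was past 1.5-fold in either line. Over all genes 2.55% were past it higher and 6.45% lower in D816V cells, and 2.14% and 2.86% in Del417-419insY cells, so a count of 0 of 8 lies near the background. Their median difference between the SCF responses was 0.04, and Dhdds and Nus1, which encode the subunits of the dolichol prenyltransferase, gave -0.28 and 0.23. The ubiquinone side chain gene Pdss2 gave 0.28 and the prenyltransferase subunit gene Rabggtb -0.14. The highest SCF differences of these 8 in D816V cells were 0.41 for Rabggta, which encodes the partner subunit and was named after its values were seen, and 0.32 for Pdss2.

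Of 7 listed genes of the SREBP machinery 6 were measured. Insig1, the feedback inhibitor that is itself an SREBP target, had an SCF difference of 0.29 in D816V and -0.58 in Del417-419insY cells, and thus lay below 0 in the same line as Idi1. Srebf1, which encodes SREBP-1, gave 0.72 in D816V and 0.18 in Del417-419insY cells. Insig2 gave -0.12 and -0.06 in these lines. Mbtps1, which encodes the protease that makes the first cut in SREBP, was lower with SCF by -1.06 in D816V and -0.45 in Del417-419insY cells. The gene of SREBP-2, Srebf2, falls outside the naming rule and gave 0.39 in D816V and 0.14 in Del417-419insY cells.

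Among 7 measured genes of sterol uptake and transport the difference between the responses had a median of 0.11 and none was past 1.5-fold. Of all genes 1.94% were past it higher and 6.12% lower, so 0 of 7 lies near the background. By the difference between the responses Stard4, a sterol carrier, and Lrp8, a receptor of the LDL receptor family, stood highest, at 0.57 and 0.56. Npc1, which exports sterol from lysosomes, and Tmem97 stood lowest, at -0.14 and -0.10. After centring each array on its median Stard4 and Lrp8 were past 1.5-fold, at 0.64 and 0.63, so the count depends on the setting. Scarb1, a receptor of high density lipoprotein named after its values were seen, had SCF differences of 0.84 in D816V and 0.32 in Del417-419insY cells, and was 1.29 higher in D816V than in Del417-419insY cells with SCF.

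Fatty acid synthesis and desaturation, which SREBP-1 governs, had 11 measured genes with a median of 0.44, of which 9 were above 0, where 41.7% of all genes were, and 2 were 1.5-fold or more higher (1.94% of all genes). Lpin1, a phosphatidate phosphatase, gave SCF differences of 1.15 in D816V and 0.42 in Del417-419insY cells, and the fatty acid synthase gene Fasn 0.59 and -0.005. These were the 2 past 1.5-fold, and after quantile normalization neither was, with differences between the responses of 0.34 for Lpin1 and 0.54 for Fasn. After centring each array on its median both were past it, at 0.80 and 0.66. After cyclic loess Lpin1 was past it at 0.70, and Fasn fell just short at 0.584. Acss2, an acetyl-CoA synthetase, and the elongase gene Elovl5 had differences between the responses of -0.004 and -0.01.

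Genes of sterol efflux and other targets of the sterol sensor LXR had a median difference between the responses of -0.26 over 6 genes, with 5 of 6 below 0, where 58.3% of all genes were. After centring each array on its median Abcg1 was at 0.04 and 4 of 6 were below 0. Apoe, the apolipoprotein that accepts cholesterol, was lower with SCF by -1.16 in D816V and -0.13 in Del417-419insY cells. It was the only one 2-fold or more lower in the difference between the responses, at -1.03, where 1.42% of all genes were. It did not pass 2-fold after centring (-0.96), quantile normalization (-0.73) or cyclic loess (-0.63). The cholesterol exporter gene Abca1 gave -0.64 in D816V and 0.27 in Del417-419insY cells, while Abcg1 gave 0.07 and 0.09. Mylip, which marks the LDL receptor for degradation, gave 0.17 and 0.48, and the phospholipid remodelling gene Lpcat3, on the positive side, 0.74 and 0.17. Only 2 of 7 listed genes of sterol esterification and oxidation were measured, Lipa, the lysosomal acid lipase, with 0.74 in D816V and 0.18 in Del417-419insY cells, and Nceh1, a cholesteryl ester hydrolase, with -0.33 and 0.13.

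**Figure D4:**
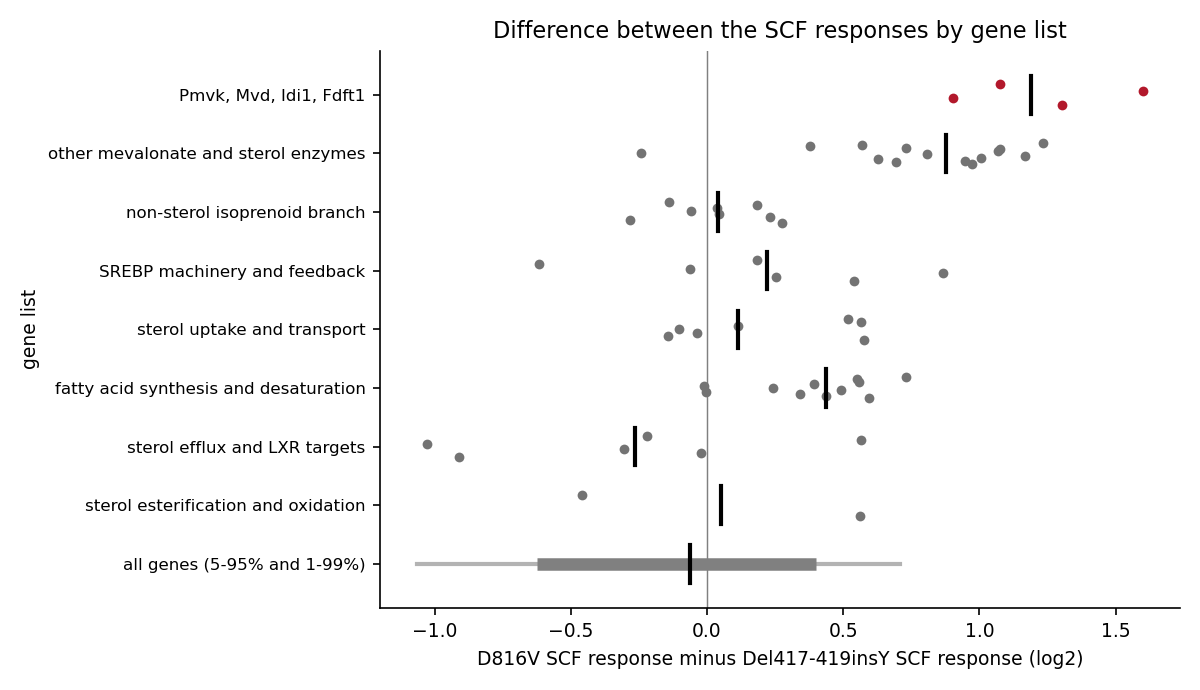
Difference between the SCF responses, D816V minus Del417-419insY, on the log2 scale (horizontal axis), with a point per measured gene and a vertical bar at the median for each list; the lowest row shows the median of all 6404 genes with the range from the 5th to the 95th percentile (thick) and from the 1st to the 99th (thin). The members and the other sterol enzymes, with medians of 1.19 and 0.88, lie mostly above the 99th percentile of all genes, 0.71.

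Genes with the pattern most like the members were sought over the 4 arrays. Each gene was centred on its mean, and the Euclidean distance to the mean profile of the 4 members was taken on the log2 scale. The median distance over all genes was 1.22, and the members themselves lay at 0.23 (Pmvk), 0.48 (Fdft1), 0.50 (Mvd) and 0.67 (Idi1). The members make up that profile and were chosen by their difference between the SCF responses, so their own distances are small by construction. The nearest other genes were Lss at 0.17, Fdps at 0.27, Aacs at 0.29, Dhcr7 at 0.30 and Lpin1 at 0.32. Rgs10, Slc2a1, Lipa, Srebf1 and Cyp51 followed at 0.37, 0.37, 0.37, 0.37 and 0.38. Sterol enzymes of the list made up 4 of these 10, and the list holds 14 of all 6404 genes. The profile comes from members chosen by the difference between the SCF responses. The list was drawn up with earlier results of these data known, so this count supports nothing further. Aacs, an acetoacetyl-CoA synthetase that feeds acetyl units from ketone bodies into lipid synthesis, stood at 0.60 with SCF and -0.53 without SCF in D816V cells, and at -0.23 with SCF and -0.35 without SCF in Del417-419insY cells. The glucose transporter gene Slc2a1 and Rgs10, a regulator of G protein signalling, had SCF differences of 0.93 and 0.91 in D816V cells and 0.36 and 0.30 in Del417-419insY cells.

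Markers of cell types also differed between these arrays. Of 9 measured mast cell markers 5 were 2-fold or more lower with SCF in D816V cells (1.31% of all genes) and 2 in Del417-419insY cells (0.547%). The list averaged 0.40 with SCF and 1.30 without SCF in D816V cells, and -1.65 with SCF and -1.10 without SCF in Del417-419insY cells. Fcer1a and Tph1 weighed heavily on the D816V averages, at 5.245 and 4.985 with SCF. Kit, the gene of the SCF receptor, was the only 1 of the 9 lower in D816V than in Del417-419insY cells. Its line difference was -1.77 with SCF and -1.07 without SCF. Of all genes 57.9% were lower in D816V cells with SCF and 55.7% without SCF. The SCF differences of Kit were -0.51 in D816V and 0.19 in Del417-419insY cells. Cma1, a chymase, and Ms4a2, the beta chain of the IgE receptor, were 2-fold or more lower in the difference between the responses (1.42% of all genes), at -1.95 and -1.07. Above 0 in it were 4 of the 9 (41.7% of all genes), with Tpsb2 at 0.62 and Mcpt4 at 0.36 the highest. Ms4a2 was at -0.92 after quantile normalization and -0.63 after cyclic loess. Erythroid markers averaged -1.06 and -1.40 in D816V cells with and without SCF, against -0.38 and -0.56 in Del417-419insY cells with and without SCF. None of 7 was past 1.5-fold in the difference between the responses. Of all genes 1.94% were past it higher and 6.12% lower, so this count lies near the background. The listed genes Hbb-b1, Hba-a1 and Alas2 were not measured. Outside the list the globin gene Hbb-bh1, named after its values were seen, had the largest difference between the responses of all genes, 2.77. Megakaryocyte, granulocyte and monocyte, lymphoid, and fibroblast and adipocyte lists had 1 of 4, 2 of 5, 1 of 2 and 0 of 2 genes 2-fold or more lower by it (1.42% of all genes), and none higher (0.344% of all genes). None of the 4 genes behind these counts, Ppbp, Ctsg, Lyz2 and Satb1, passed 2-fold after quantile normalization, at -0.80, -0.99, -0.87 and -0.76. The part of these shifts in the results for the enzymes was not tested, and in bulk RNA fewer cells of a type and less RNA per cell cannot be told apart.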

How the data were processed

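RNA of 4 EML cultures was hybridised to Affymetrix M430 2.0 arrays, 1 per group, per the labels' protocols. The deposited log2 values were made by the authors with RMA, per the submitters' processing notes. Its version, the level the values are relative to and the filter that left 10861 of 45101 probe sets were not given in the sources used here. No source states the log base, and 2 is assumed, as is usual for RMA. Signal over background could not be examined, and precision is limited by the number of arrays.

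Of the probe sets, 9633 had 1 platform symbol, 264 several and 964 none. The mean of the probe sets with 1 symbol gave 6404 genes, 4203 of them with 1 probe set. Differences are SCF minus no SCF and D816V minus Del417-419insY. With 1 array per group no test was run. An additive fit would take the difference between the SCF responses, which chose the members, for its error. Genes were instead counted at 2-fold and 1.5-fold. The 4 members and the 14 gene lists were chosen with earlier results of these data known. Named genes were the members, list genes 2-fold or more apart in the difference between the responses with up to 4 others per list (the 2 highest and 2 lowest), and the 10 nearest patterns. Rescaling used limma 3.58.1 in R 4.3.3, and the calculation of differences was tested on simulated data. Alternatives were 3 scalings, the probe set with the highest mean relative value, leaving out the 25% of probe sets with the lowest, and the fold.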

Additional observations from a re-analysis of the deposited data

Results flagged for a closer look

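Opposite signs of the SCF difference in the 2 lines drew attention to 8 genes among the members, the named sterol enzymes and the 10 genes of nearest pattern, each read from 1 pair of arrays per line, and the difference between the lines was not tested. Idi1 differed by 0.76 in D816V cells and -0.84 in Del417-419insY cells, 1.60 apart, and was the only one of the 8 past 1.5-fold in both lines. The lanosterol demethylase gene Cyp51 was 1.17 apart (0.91 in D816V and -0.26 in Del417-419insY cells) and the early synthase gene Hmgcs1 0.97 apart (0.76 and -0.21). Dhcr7, Msmo1, Lss and Fdps were 1.23, 1.07, 1.004 and 0.95 apart, with SCF differences near 0 in Del417-419insY cells. Lbr ran the other way, at -0.24. After centring the signs were no longer opposite for Lss, Dhcr7 and Fdps, at 0.0095, 0.002 and 0.007 in Del417-419insY cells, nor for Lbr, at 0.004 in D816V cells. Outside these genes signs were also opposite, in D816V and Del417-419insY cells, for Hsd17b7 (0.28 and -0.46), Sqle (0.53 and -0.10), Insig1 (0.29 and -0.58) and Cma1 (-1.19 and 0.76), among others. The value for Hsd17b7 is the mean of 3 probe sets, which differed in sign in D816V cells, at -0.375, 0.142 and 1.058. In the same order they gave -0.773, -0.419 and -0.179 in Del417-419insY cells, so the first was lower with SCF in both lines. The highest D816V value came from a probe set with suffix x, whose probes may also bind other sequences. Over all genes 34.3% had SCF differences of opposite sign in the lines, so an opposite sign alone was common and does not set the 8 genes apart.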

How the results depend on the processing

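The members' medians in all 5 differences and the medians of the 14 other sterol enzymes moved by less than 1.5-fold under all 5 alternatives to scaling, probe set choice and filter. Medians near 0 changed sign: the members' line difference without SCF was 0.01 after centring, against -0.08, and the other enzymes' SCF difference in Del417-419insY cells was 0.008 after centring, 0.014 after quantile normalization and 0.03 after cyclic loess, against -0.02. The members' difference between the SCF responses ranged over these settings from 1.15 to 1.37 for Pmvk, 0.73 to 1.11 for Mvd, 1.59 to 1.82 for Idi1 and 1.02 to 1.17 for Fdft1, so Mvd passed 2-fold only with the probe set of the highest mean. Counts over all genes depended on the setting. Genes 2-fold or more higher with SCF in D816V cells numbered 32 after centring and 34 after cyclic loess, against 21. Those lower there numbered 35 after quantile normalization, 50 after cyclic loess, 145 with the probe set of the highest mean and 54 without the lowest 25% of probe sets, against 84. In Del417-419insY cells 41 were higher after quantile normalization, against 21, and 96 lower with the probe set of the highest mean, against 35. Genes lower in the difference between the responses numbered 57 after quantile normalization, 56 after cyclic loess and 37 without that lowest 25%, against 91. Without those probe sets 253 genes were lower in D816V cells with SCF and 139 without SCF, against 475 and 269. Fewer genes were then counted, 5080. The filter ranks probe sets by mean relative value, and each has its own zero, so it does not sort by expression level. It removes the probe sets lowest on these arrays, so a fall in the counts of lower genes is partly built in. Choosing the probe set with the highest mean does not sort by expression level either. At a fold of 1.5 the counts of higher and lower genes were 163 and 413 for SCF in D816V cells, 137 and 183 for SCF in Del417-419insY cells, 124 and 392 for the difference between the responses, 844 and 1307 between the lines with SCF, and 783 and 809 without SCF. The other sterol enzymes past the fold in the difference between the responses were then 11 of 14, against 5, since the fold is lower. Otherwise the cause was not tested. No paired analysis was possible because each group has 1 array and the groups share 1 replicate number. No array could be left out, since each is a whole group.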
